A study of Mus musculus with 4 samples.

Results

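The 10 genes described here encode parts of the autophagy machinery that can also deliver lipid droplets to lysosomes, together with the transcription factor gene Tfeb. They were chosen by symbol in the platform annotation: Ulk1, Becn1, Wipi1, Atg5, Atg7, Map1lc3b, Gabarapl1, Gabarapl2, Sqstm1 and Tfeb. All 10 were found among the 22180 genes with a probe set of their own, each with 1 such probe set, and all 10 passed the level filter that kept 13308 genes. The values are log2 expression from 4 whole-transcript arrays of cultured mouse bone marrow-derived macrophages. The groups were Hilpda knockout (KO) cells from HilpdaΔMΦ mice and wild-type (WT) cells from floxed Hilpda littermates without the deletion, each after 12 h and after 24 h. The mice were 8 to 12 weeks old, and marrow was cultured for 7 days in medium with 15% L929-conditioned medium. Every culture, of either genotype, received 600 µM fatty acids on albumin, 1 part palmitate to 2 parts oleate, so these arrays hold no group without fatty acids, and the hours of loading and the hours in culture cannot be told apart. RNA of 3 samples was pooled on each array and there was 1 array per group, so there is no replicate error within a group.

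HILPDA is a small lipid droplet protein that inhibits adipose triglyceride lipase, the enzyme that starts the cytosolic breakdown of stored fat. Autophagy is the other route by which a cell can reach stored fat: a membrane forms around a piece of droplet, closes and fuses with a lysosome, where acid lipase cleaves the lipid. The ULK1 kinase starts the process, the beclin 1 complex makes the lipid PI3P, WIPI proteins read that lipid, and ATG7 and ATG5 act in attaching proteins of the ATG8 family to the growing membrane. Receptors such as p62, encoded by Sqstm1, tie cargo to that membrane, and TFEB switches on many genes of autophagy and lysosomes. Most of this control acts on proteins, by phosphorylation and lipid attachment, and transcript levels do not measure autophagic flux.

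Hilpda itself had a log2 level of 5.41 in KO and 5.93 in WT cells at 12 h, and of 5.27 in KO and 5.47 in WT cells at 24 h. It was lower in the arrays labelled knockout at both times, by 1 probe set that may lie outside the deleted part of the gene. The cells carried macrophage transcripts: all 7 macrophage markers passed the level filter, between 8.21 and 12.83, whereas 0 of 6 neutrophil, 0 of 2 B cell and 0 of 3 mast cell or basophil markers did. Of the T cell markers 2 of 3 passed, and of the dendritic cell markers 1 of 3. Of 8 stromal markers 7 passed, and their summed level, as log2, was 8.71 in KO and 9.23 in WT cells at 12 h, and 9.26 in KO and 10.08 in WT cells at 24 h. In pooled RNA, fewer cells of a type and less RNA per cell cannot be told apart. Pairwise correlations of the arrays over the whole table were 0.984 to 0.988 (Pearson).

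Promoter sequences are shown for the 3 genes with the widest range over the arrays, Ulk1, Gabarapl1 and Atg5, and for Atg7, which has the same E-box as Atg5. Of the 10 genes, 9 matched the RefSeq promoter table of mouse build GRCm38.p6, with 11 start sites, 3 of them of Tfeb; Becn1 did not. The sequences run 5′ to 3′ over the 250 bases before the start site, and capitals mark CACGTG.
Ulk1 (chr5:110810082-110810331, minus strand): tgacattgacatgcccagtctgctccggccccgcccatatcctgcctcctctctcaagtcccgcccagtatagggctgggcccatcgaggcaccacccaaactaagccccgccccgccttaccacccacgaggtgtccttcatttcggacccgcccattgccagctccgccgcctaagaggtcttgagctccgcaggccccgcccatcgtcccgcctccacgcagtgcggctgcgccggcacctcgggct
Gabarapl1 (chr6:129532942-129533191, plus strand): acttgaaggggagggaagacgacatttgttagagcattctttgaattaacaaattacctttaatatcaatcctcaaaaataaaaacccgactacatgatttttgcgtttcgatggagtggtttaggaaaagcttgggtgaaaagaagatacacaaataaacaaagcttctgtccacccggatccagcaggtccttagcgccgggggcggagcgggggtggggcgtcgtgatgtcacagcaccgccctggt
Atg5 (chr10:44268089-44268338, plus strand): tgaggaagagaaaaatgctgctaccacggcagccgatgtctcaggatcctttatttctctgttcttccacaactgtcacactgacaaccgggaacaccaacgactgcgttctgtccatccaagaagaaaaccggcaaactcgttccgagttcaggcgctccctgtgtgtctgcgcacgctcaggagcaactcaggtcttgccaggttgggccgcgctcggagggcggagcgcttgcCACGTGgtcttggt
Atg7 (chr6:114670846-114671095, plus strand): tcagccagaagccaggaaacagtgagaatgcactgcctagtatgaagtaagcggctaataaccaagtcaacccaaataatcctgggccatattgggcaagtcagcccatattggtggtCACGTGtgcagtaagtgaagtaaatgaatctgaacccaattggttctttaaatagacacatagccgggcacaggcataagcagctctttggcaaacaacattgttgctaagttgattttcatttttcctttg
CACGTG is the E-box that TFEB and related factors can bind, and the longer CLEAR element known from lysosomal genes contains it. Windows ran from 250 bases before to 50 bases after the start, and both strands were searched. CACGTG was found at Atg5 and Atg7, that is, at 2 of 9 genes, and at 8.09% of all 27025 genes with promoters. By promoter, the share was 7.15% of all 32851. In Atg5 it lay 14 to 9 bases before the start and in Atg7 132 to 127 bases before it. The full CLEAR element was found at 0 of 9 genes (0.370% of all genes with promoters) and TGATGCAAT, a composite element of CHOP and ATF4, also at 0 of 9 (0.222%). TGACNNNGC, the core of the antioxidant response element of NRF2, was found at Map1lc3b, as TGACTCGGC at bases 5 to 13 after the start counted from 1. It was found at 14.0% of all genes with promoters. These matches describe letters in the window and do not show binding.

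Between the genotypes, the 10 genes differed by less than 1.5-fold, and at 24 h by about as much as all genes did. A genotype difference is the log2 level in KO minus that in WT cells at the same time. At 12 h the differences lay between -0.18 (Ulk1) and 0.27 (Gabarapl1), with 6 above 0, 4 below and a median of 0.02, against 0.00 over all 13308 genes. At 24 h they lay between -0.47 (Ulk1) and 0.31 (Gabarapl1), with 5 above 0, 5 below and a median of 0.02, against 0.01 over all genes. At neither time was any of the 10 past 1.5-fold, a rule that 2.90% of all genes passed at 12 h and 6.49% at 24 h. Such shares of 10 genes come to less than 1 gene, so a count of 0 does not set these genes apart. The median size of the difference, regardless of sign, was 0.06 for the 10 genes and 0.12 for all genes at 12 h, and 0.17 and 0.16 at 24 h.

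**Figure D1:**
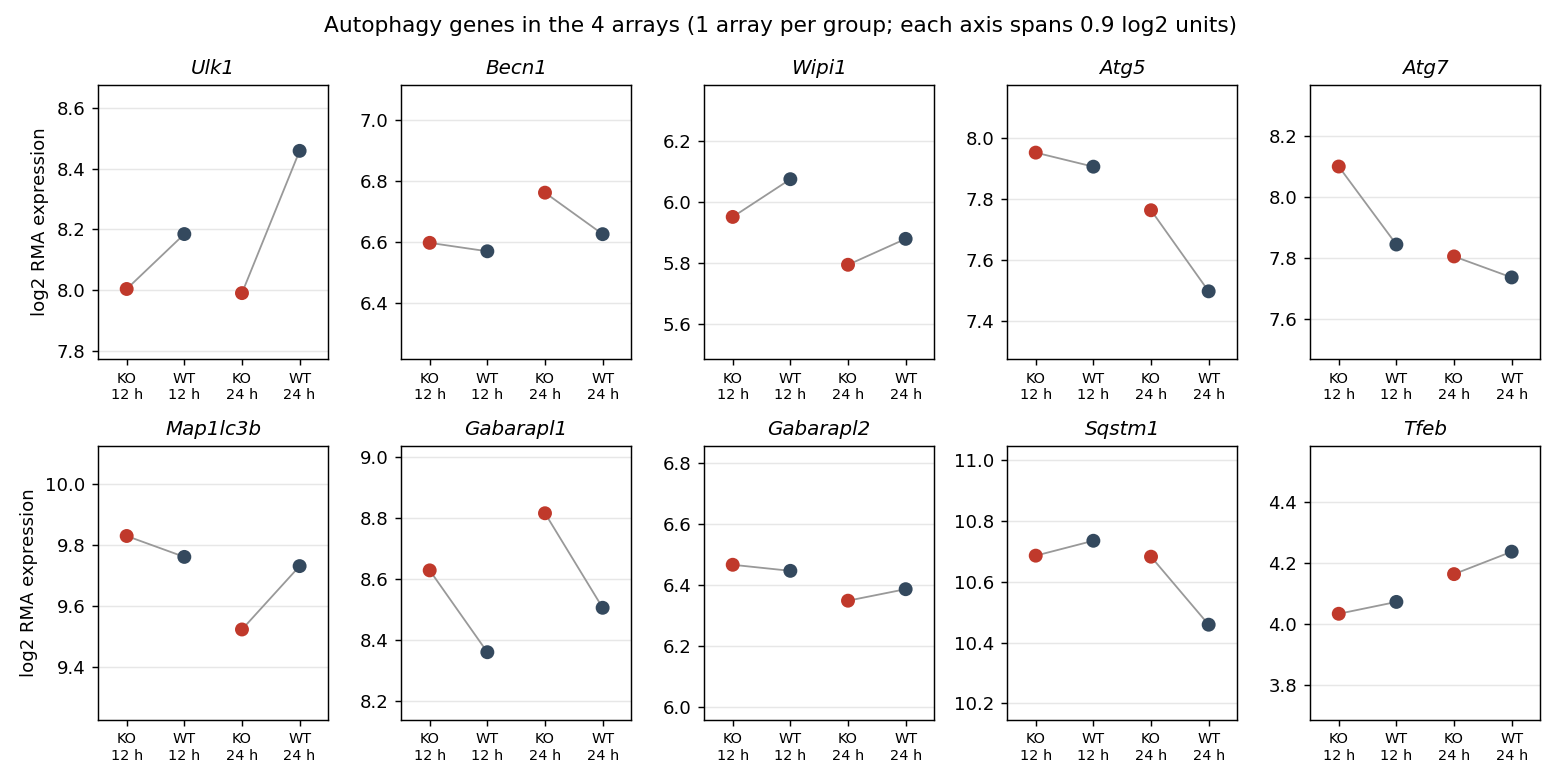
Log2 RMA expression (y axis) of the 10 genes in the 4 arrays (x axis: KO and WT at 12 h, then KO and WT at 24 h; red, KO; blue, WT; 1 array per group, so no error bars). Every panel spans the same number of log2 units; Ulk1 stands highest in WT at 24 h (8.46), and Gabarapl1 lies higher in KO than in WT at both times.

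**Figure D2:**
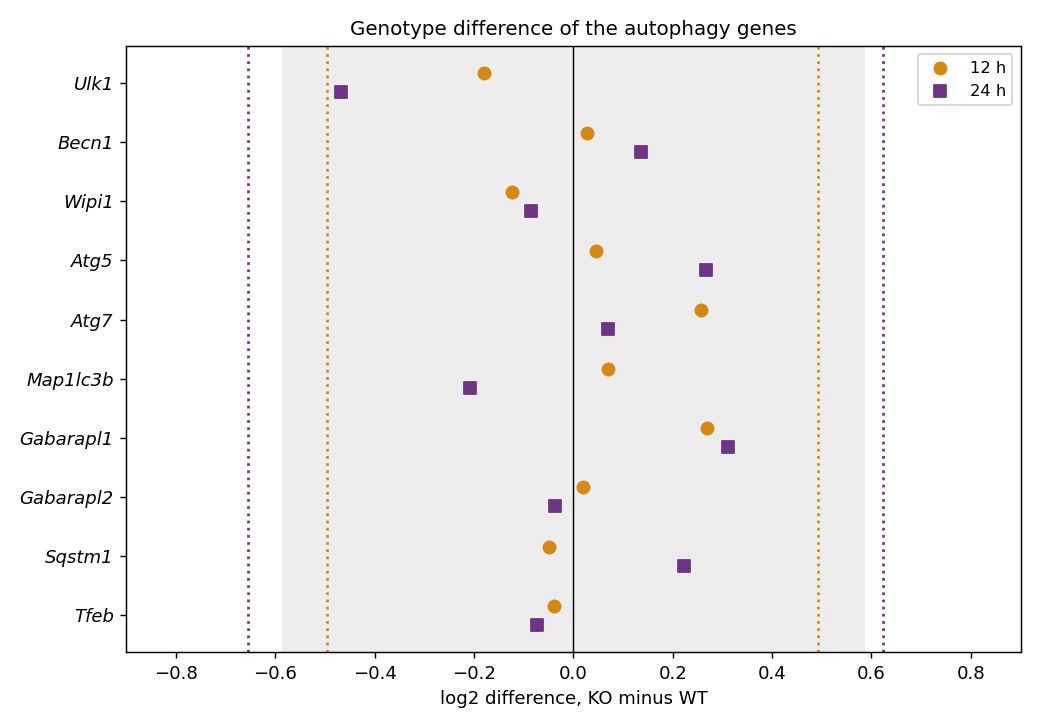
Genotype difference (x axis, log2 level in KO minus WT) of the 10 genes at 12 h (circles) and 24 h (squares); dotted lines bound the central 95% of all 13308 genes at the time of the same colour, and the grey band holds differences under 1.5-fold. All 20 points lie inside the band, with Ulk1 at 24 h (-0.47) the farthest from 0.

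Ulk1, the kinase that starts autophagosome formation, had the largest genotype difference of the 10. Its level was 8.00 in KO and 8.18 in WT cells at 12 h, a difference of -0.18, and 7.99 in KO and 8.46 in WT cells at 24 h, a difference of -0.47 or 1.38-fold. The value at 24 h rests on the WT 24 h array, which lay 0.45 above the median of the other 3 arrays, whose range was 0.19. Among all genes, 792 of 13308 had a difference at 24 h as low or lower. With a fold rule of 1.3, none of the 10 passed between the genotypes at 12 h, where 9.90% of all genes did, and Ulk1 alone passed at 24 h, where 17.1% of all genes did. The stromal sum was also highest in the WT 24 h array. The macrophage markers lay on the same side as Ulk1 at 24 h, with 6 of 7 lower in KO, a median difference of -0.26 and the integrin gene Itgam past 1.5-fold at -0.72, whereas at 12 h 3 of 7 were lower, with a median of 0.01. Their summed level, as log2, was 14.11 in KO and 14.16 in WT cells at 12 h, and 14.16 in KO and 14.40 in WT cells at 24 h. The part of either marker list in the Ulk1 value was not tested. The other genes listed for the ULK1 complex lay on the same side at 24 h. All 5 genes of that list were below 0 there, with a median of -0.10, and 3 of 5 at 12 h, with a median of -0.07. Rb1cc1, the scaffold FIP200, was the next in size at 24 h, at -0.21, and was at -0.07 at 12 h. None of the 5 was past 1.5-fold. Over all 13308 genes, 6576 lay below 0 at 12 h and 6525 at 24 h.

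Becn1, the core of the PI3-kinase complex, was nearly level. It stood at 6.60 in KO and 6.57 in WT cells at 12 h and at 6.76 in KO and 6.62 in WT cells at 24 h, differences of 0.03 and 0.14. Of the 8 genes of the complex and its regulators, 3 were above 0 at 12 h and 4 at 24 h, with medians of -0.02 and -0.01 and 0 past 1.5-fold. The largest differences at 24 h were -0.27 for Pik3c3, the lipid kinase VPS34, and 0.24 for Atg14, which directs the complex to autophagy. Atg14 lay on the other side at 12 h, at -0.17.

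Wipi1, which binds PI3P on the forming membrane, was lower in KO at both times by small amounts. Its level was 5.95 in KO and 6.08 in WT cells at 12 h, and 5.79 in KO and 5.88 in WT cells at 24 h, differences of -0.12 and -0.09. Over all 13308 genes, 6576 lay below 0 at 12 h, 6525 at 24 h and 26.0% at both. Of the 10 PI3P effectors and genes of membrane supply, 7 were below 0 at each time and 6 at both, with a median of -0.07 at each. Vmp1, a lipid scramblase of the endoplasmic reticulum, was the 1 gene past 1.5-fold, at 12 h: it stood at 3.92 in KO and 4.57 in WT cells, a difference of -0.65. At 24 h it lay the other way, at 4.41 in KO and 4.23 in WT cells, a difference of 0.18. Vmp1 passed the level filter of 2.44 but not a stricter one of 4.37, the 60th percentile of mean level. Atg9a, a scramblase on vesicles that seed the membrane, was at -0.14 and -0.19, and Atg2a, a lipid transfer protein, at -0.08 and -0.19.

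Atg5 and Atg7, of the conjugation system, were both above 0 at both times. Atg7, the E1-like enzyme, stood at 8.10 in KO and 7.84 in WT cells at 12 h and at 7.80 in KO and 7.74 in WT cells at 24 h, differences of 0.26 and 0.07. Atg5, which joins ATG12 in the E3-like complex, stood at 7.95 in KO and 7.91 in WT cells at 12 h and at 7.76 in KO and 7.50 in WT cells at 24 h, differences of 0.05 and 0.27. The larger difference of Atg7 was thus at 12 h and rested on the KO 12 h array, and that of Atg5 at 24 h and rested on the WT 24 h array. Over the 11 conjugation genes, 7 were above 0 at 12 h, 9 at 24 h and 6 at both, with medians of 0.05 and 0.07 and 0 past 1.5-fold. Of all genes, 50.6% were above 0 at 12 h, 50.9% at 24 h and 27.5% at both. Atg10, the E2-like enzyme for ATG12, had the largest difference of the list at both times: it stood at 6.98 in KO and 6.58 in WT cells at 12 h (0.40), and at 6.91 in KO and 6.47 in WT cells at 24 h (0.44).

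The ATG8 genes, whose proteins are attached to the membrane, went different ways. Gabarapl1 was higher in KO at both times, with levels of 8.63 in KO and 8.36 in WT cells at 12 h and of 8.82 in KO and 8.51 in WT cells at 24 h. These differences of 0.27 and 0.31 correspond to 1.20-fold and 1.24-fold, and both KO arrays lay above both WT arrays. Among all genes, 1250 had a difference as high at 12 h and 1613 at 24 h. Map1lc3b, which encodes LC3B, the usual marker of autophagosomes, stood at 9.83 in KO and 9.76 in WT cells at 12 h and at 9.52 in KO and 9.73 in WT cells at 24 h. Its differences of 0.07 and -0.21 had opposite signs, and the KO 24 h array lay 0.24 below the median of the other 3, whose range was 0.10. Gabarapl2, also called GATE-16, had the narrowest range of the 10 genes, from 6.35 to 6.47, with differences of 0.02 and -0.04. The median over the 5 ATG8 genes was 0.02 at 12 h and 0.08 at 24 h, with 3 above 0 at each time and 0 past 1.5-fold.

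Sqstm1, the cargo receptor p62 and itself a known NRF2 target, stood at 10.69 in KO and 10.73 in WT cells at 12 h and at 10.68 in KO and 10.46 in WT cells at 24 h. Its differences were -0.05 and 0.22, and the other 3 arrays spanned 0.05 while the WT 24 h array was 0.23 below their median. Of the 9 cargo receptor genes measured, 4 were above 0 at 12 h and 6 at 24 h, with medians of -0.05 and 0.05 and 0 past 1.5-fold. Nbr1, a receptor related to p62, was at 0.05 and -0.25, the opposite pattern of signs to Sqstm1.

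Tfeb stood at 4.03 in KO and 4.07 in WT cells at 12 h and at 4.16 in KO and 4.24 in WT cells at 24 h, differences of -0.04 and -0.07. It passed the level filter of 2.44 but not the stricter one of 4.37. Of the 10 kept genes of the TFEB family and its regulators, 5 were above 0 at each time, with medians of 0.01 and 0.00 and 0 past 1.5-fold. Rragd, a Rag GTPase and known TFEB target, was at 0.27 and 0.49, and Foxo3, a factor that also acts on autophagy genes, at -0.24 and -0.31. Tfeb, Foxo3, Rb1cc1 and Atg2a had the same order over the arrays as the stromal sum, and its part in them was not tested. The middle of that order is close, at 9.23 in WT at 12 h and 9.26 in KO at 24 h. Of the kept stromal markers, Postn, Col3a1 and Pdgfra were also lower in WT at 12 h than in KO at 24 h. Col1a1, Col1a2, Dcn and Pdgfrb were higher. Wdr45 and Wipi2 had the order of the sum as well, and its share over all genes was not counted. These limits hold for each later match to this order. The lysosomal targets of TFEB lay mostly on the KO side. Of all genes, 50.6% were above 0 at 12 h, 50.9% at 24 h and 27.5% at both. Of the 18 lysosomal targets measured, 15 were above 0 at 12 h, 14 at 24 h and 12 at both. Their median was 0.11 at each time against 0.00 and 0.01 over all genes, and 0 were past 1.5-fold. The largest of them at 24 h were the proton pump subunit gene Atp6v0d2 at 0.54 and the alpha-galactosidase gene Gla at 0.51, which were at 0.15 and 0.21 at 12 h.

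Tecpr1 and Ehd2 had the largest genotype differences within the fusion list and the lipophagy list. Over all genes, 2.90% were past 1.5-fold at 12 h and 6.49% at 24 h, and 50.6% and 50.9% lay above 0. Tecpr1, which tethers autophagosomes to lysosomes, stood at 8.01 in KO and 7.68 in WT cells at 12 h (0.33) and at 8.63 in KO and 8.23 in WT cells at 24 h (0.40). Over the 9 fusion genes the medians were 0.05 and 0.08, with 7 and 6 above 0 and 0 past 1.5-fold between the genotypes. Ehd2, a membrane ATPase tied to lipophagy in hepatocytes, was the 1 gene of 10 kept in the lipophagy list past 1.5-fold, at both times. It stood at 3.38 in KO and 4.02 in WT cells at 12 h (-0.64) and at 4.40 in KO and 5.25 in WT cells at 24 h (-0.86). The mean level of Ehd2 was below the stricter level filter of 4.37. The stromal sum had the same order over the arrays, lowest in KO at 12 h and highest in WT at 24 h, and its part in Ehd2 was not tested. Osbpl8, a sterol-binding protein described as a lipophagy receptor, was at 0.11 and 0.34. The lipophagy medians were 0.02 at each time, with 6 genes above 0 at 12 h and 5 at 24 h.

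**Figure D3:**
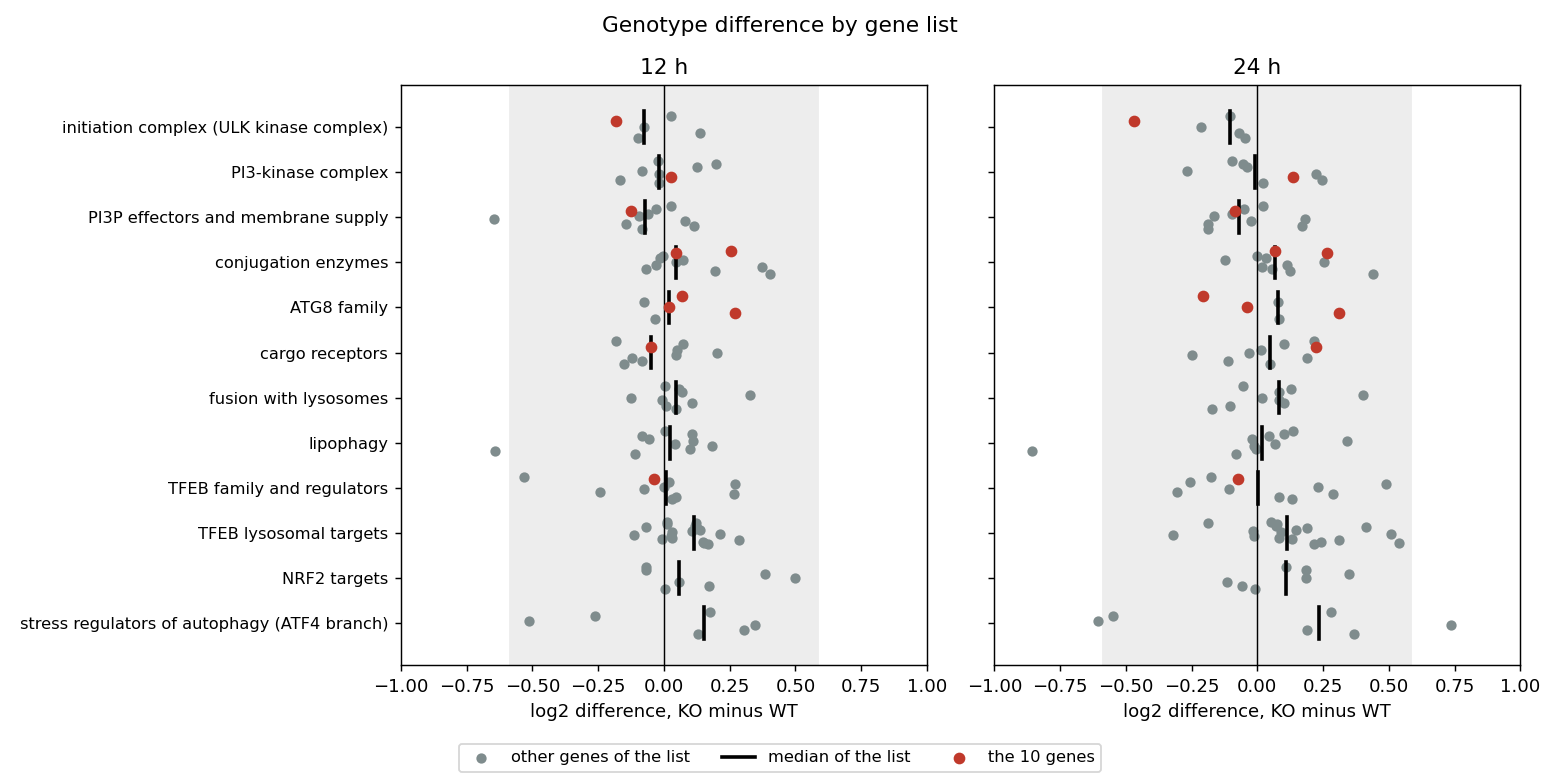
Genotype difference (x axis, log2 level in KO minus WT) of each kept gene of 12 lists (rows) at 12 h (left) and 24 h (right); red points are the 10 genes, grey points the other genes, black bars the list medians, and the grey band holds differences under 1.5-fold. The TFEB lysosomal targets sit mostly to the right of 0 (median 0.11 at each time), and Ehd2 and Vmp1 lie past the band on the left at 12 h.

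Across the first 7 of these lists, from the ULK1 complex to fusion with lysosomes, 57 genes were kept. Their median genotype difference was 0.01 at 12 h and 0.02 at 24 h, with 29 and 31 above 0. Of the 48 that are not among the 10 genes, 1 was past 1.5-fold at 12 h (Vmp1) and 0 at 24 h, where the shares over all genes were 2.90% and 6.49%. Over genes past the stricter level filter, which Vmp1 did not pass, these shares were 1.03% and 4.28%.

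A time difference was taken within a genotype as the level at 24 h less the one at 12 h. Time and genotype differences use the same arrays, so the values are not independent of those above. In KO cells the 10 genes lay between -0.31 (Map1lc3b) and 0.19 (Gabarapl1), with 3 above 0, 7 below and a median of -0.07, against 0.00 over all genes. In WT cells they lay between -0.41 (Atg5) and 0.27 (Ulk1), with 4 above 0, 6 below and a median of -0.05, against -0.01 over all genes. None of the 10 was past 1.5-fold, as 6.31% of all genes were in KO and 8.72% in WT cells. Past 1.3-fold there was none in KO cells, against 16.8% of all genes, and 1 in WT cells, Atg5, against 20.4% of all genes.

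By gene, Gabarapl1, Becn1 and Tfeb were higher at 24 h in both genotypes, at 0.19, 0.16 and 0.13 in KO and 0.15, 0.06 and 0.16 in WT cells. Lower at 24 h in both were 6 genes: Atg5 at -0.19 in KO and -0.41 in WT, Atg7 at -0.30 and -0.11, Wipi1 at -0.16 and -0.20, Map1lc3b at -0.31 and -0.03, Gabarapl2 at -0.12 and -0.06, and Sqstm1 at -0.00 and -0.28. The KO value of Sqstm1 turned to 0.03 after median centring, 0.02 after quantile normalization and 0.00 after loess, so its sign depends on the scaling. Ulk1 was at -0.01 in KO and 0.27 in WT cells, and its KO value turned to 0.02 after median centring. Among all genes, 29.3% were higher and 29.8% were lower at 24 h in both genotypes.

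**Figure D4:**
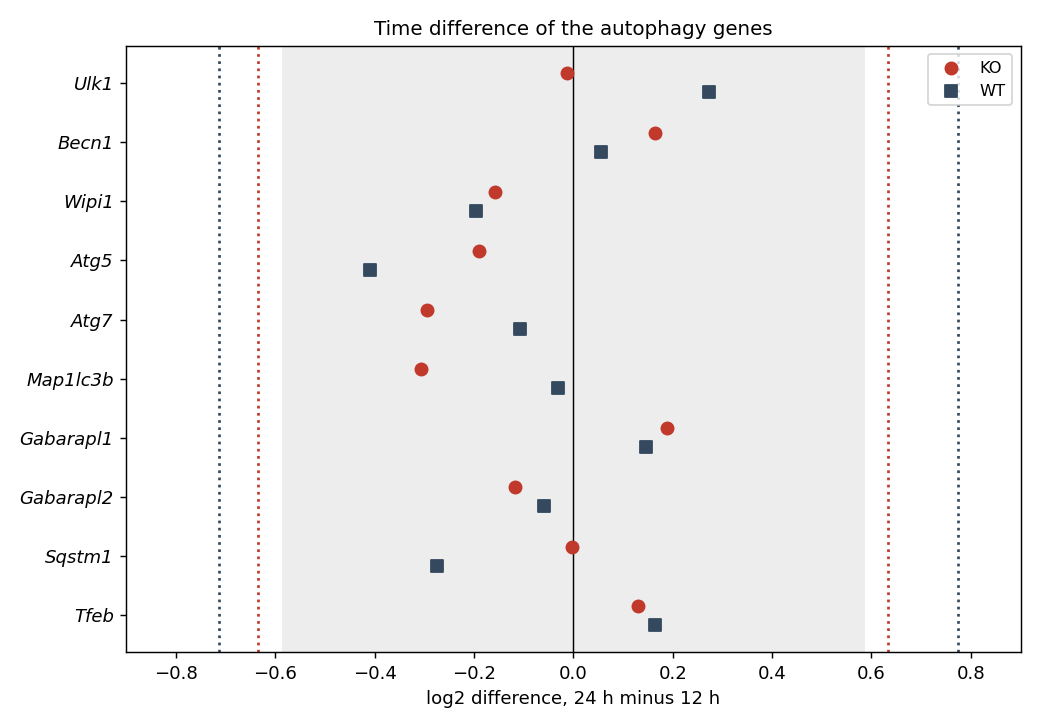
Time difference (x axis, log2 level at 24 h minus 12 h) of the 10 genes in KO (circles) and WT (squares) cells; dotted lines bound the central 95% of all 13308 genes in the genotype of the same colour, and the grey band holds differences under 1.5-fold. All 20 points lie inside the band; Atg5 in WT (-0.41) lies farthest from 0.

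Other genes of the pathway had larger time differences. Tecpr1 was higher at 24 h by 0.62 in KO and 0.55 in WT cells, and Ehd2 by 1.02 and 1.23, while the stromal sum was also higher at 24 h in both. Ctsf, a lysosomal protease gene, was at 0.39 in KO and 0.60 in WT cells. Its order over the arrays was also that of the stromal sum, whose part in it was not tested. Of the 18 lysosomal targets of TFEB, 13 were below 0 in KO and 12 in WT cells, with medians of -0.05 and -0.12, among them Gla at -0.22 and -0.52. Of the 11 conjugation genes 8 were below 0 in each genotype. Over all 13308 genes, 6594 lay below 0 in KO and 6766 in WT cells. The ULK1 complex had a median of -0.01 in KO and 0.27 in WT cells.

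Both times entered a limma fit with genotype and time as added terms, which tests across genes although each group has 1 array. It leaves 1 residual degree of freedom, which is how far the genotype difference at 24 h departs from the one at 12 h. The fit draws that error toward a prior variance estimated over all genes, with 3.30 prior degrees of freedom. The SEs of the 10 genes, from 0.11 to 0.13, thus rest mostly on that prior and are not an error between replicates. For genotype, 0 of 13308 genes had an adjusted p under 0.05 by limma with Benjamini-Hochberg adjustment, 868 had an unadjusted p under 0.05, and 0 of the 10 genes had either. The closest of the 10 were Gabarapl1, with an estimate of 0.29 (SE 0.11, 95% interval -0.01 to 0.59), and Ulk1, with -0.32 (SE 0.13, -0.68 to 0.03), both at a limma adjusted p of 0.76. Sqstm1 had an estimate of 0.09 (SE 0.13, -0.26 to 0.44) and Map1lc3b one of -0.07 (SE 0.13, -0.42 to 0.28). Tfeb, at -0.06 (SE 0.11), had an interval of -0.36 to 0.25. These intervals still hold differences of the size seen in the arrays, so they do not show that the genotypes were alike.

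For time, 0 of 13308 genes had a limma adjusted p under 0.05 and 1759 had an unadjusted p under 0.05, again with 0 of the 10 among either. Atg5 was closest, at -0.30 (SE 0.12, 95% interval -0.63 to 0.03, limma adjusted p 0.42). With a prior variance that follows the level, 540 genes passed for time, which is 4.06% of those tested, and 0 of the 10 were among them. Of the other listed genes 6 passed, with limma adjusted p-values from 0.00997 to 0.0275. Higher at 24 h in that fit were Tecpr1 by 0.59 (SE 0.08), Ehd2 by 1.13 (SE 0.19), the mTORC1 inhibitor gene Sesn2 by 0.69 (SE 0.13) and the haem oxygenase gene Hmox1 by 0.41 (SE 0.08). Lower were Naglu, a lysosomal hydrolase, at -0.45 (SE 0.08), and Clcn7, the lysosomal chloride transporter, at -0.42 (SE 0.08). These 6 calls came from lists that hold 107 kept genes, the 10 included, and are to be read against the 4.06% of all genes. They were not made by the fit with a single prior variance.

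Over the 4 arrays, the range of the 10 genes ran from 0.12 for Gabarapl2 to 0.47 for Ulk1, against a median range of 0.33 over all genes kept. The array farthest from the other 3 was KO at 24 h for 4 genes (Map1lc3b, Gabarapl1, Gabarapl2, Becn1), WT at 24 h for 4 (Ulk1, Atg5, Sqstm1, Tfeb), KO at 12 h for Atg7 and WT at 12 h for Wipi1. The 3 widest profiles were set beside those of all genes by the root mean square distance after centring each gene on its mean. Closest to Ulk1 were Ripor2 (0.0067), the endotoxin co-receptor gene Cd14, one of the 7 macrophage markers (0.014), and the adenylate kinase gene Ak1 (0.014). Closest to Gabarapl1 were Isoc2a (0.0042), Gm1604b (0.0089) and Hectd2 (0.0096), and closest to Atg5 were Spsb2 (0.0087), Rpl17-ps9 (0.010) and Mydgf (0.010). Ripor2, at 2.34 to 2.80, and Gm1604b, at 2.51 to 2.95, lie near the level filter of 2.44. With 4 arrays such closeness is a description of these arrays.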

How the data were processed

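Transcript levels came from 4 arrays, 1 per group, assigned from genotype and hours in the labels. Values were deposited by the authors as log2 expression, 1 per probe set and array; the submitters' processing notes name RMA, with no version, and the log2 scale was inferred from values of up to 13.2 with array medians of 2.70 to 2.73. RMA equalizes the distributions of the arrays, which hides any shift common to all transcripts. The platform annotation gave 23521 of 41345 probe sets 1 symbol and 1814 several; only the former were used, and gene names followed RefSeq. For genes with several probe sets the one with the highest mean was taken. Genes at or above the 40th percentile of mean level, 2.44, were kept.

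Differences of single arrays were not tested; those past 1.5-fold were counted. The limma fit (limma 3.58.1, R 4.3.3) added genotype and time, with Benjamini-Hochberg adjustment over all 13308 genes. The labels do not say whether the 3 pooled samples were separate animals. The number of arrays limits the precision; near background, 1380 olfactory, vomeronasal and trace amine receptor genes had genotype differences with SDs of 0.276 at 12 h and 0.299 at 24 h (log2).

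The 10 genes, the 12 lists, the markers and the motifs were chosen with earlier results of these data known. Named beside the 10 were list members past 1.5-fold in any pairwise difference, the 2 largest per list at 24 h between the genotypes, the 3 closest profiles to each of the 3 widest genes, and Hilpda. Naglu, Hmox1, Clcn7 and Itgam were named after their values were seen. Alternatives are given in the closing section; the loess used a span of 0.3. The steps were tested on simulated data. A probe set listed for both Becn1 and Cntd1 was left out.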

Additional observations from a re-analysis of the deposited data

Results flagged for a closer look

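For 3 of the 10 genes the genotype difference had opposite signs at the 2 times, and for Ulk1 the time difference had opposite signs in the 2 genotypes. These contrasts rest on 1 array per group, and the differences between them were not tested. Sqstm1 had a genotype difference of 0.22 at 24 h and -0.05 at 12 h, a change of 0.27. Map1lc3b had -0.21 at 24 h and 0.07 at 12 h, a change of -0.28. Gabarapl2 had -0.04 at 24 h and 0.02 at 12 h, a change of -0.0577. For Ulk1 the time difference was -0.01 in KO and 0.27 in WT cells, a difference of -0.29. Over all 13308 genes the central 95% of such changes ran from -0.78 to 0.74, and all 4 values lie well inside that range. Of all genes, 46.6% had opposite signs of the genotype difference between the times. Opposite signs of the time difference between the genotypes, as for Ulk1, were found in 40.9%.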

How the results depend on the processing

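The count of 0 genes past the fold rule among the 10 was the same in all 4 comparisons with no level filter, the stricter filter (9 of the 10 genes kept, without Tfeb), a fold rule of 2, median centring, quantile normalization, loess and the mean over probe sets. With a fold rule of 1.3 it was 1 for the genotypes at 24 h and 1 for time in WT cells. Of 236 recomputed values of the 10 genes, 4 changed sign, all time differences in KO cells close to 0 (Sqstm1 in 3 settings, Ulk1 in 1), and the largest shift was 0.05. The count of all genes past the rule at 12 h between the genotypes was 386, against 628 with no filter, 91 with the stricter filter, 1317 at 1.3-fold and 34 at 2-fold. At 24 h it was 864, against 380, 2278 and 103 with the last 3. For time it was 840 in KO and 1161 in WT cells, against 410 and 663, 2234 and 2715, and 150 and 260. Under every limma setting 0 of the 10 genes passed for genotype (lowest adjusted p 0.515) or for time (0.164). Over all genes the limma count for time was 0, but 146 with the stricter filter, 540 with a variance trend and 1 without a genotype term. The additive limma fit pairs the genotypes by time; without the time term 0 of the 10 genes passed for genotype, as with it. The arrays carry no replicate numbers to pair by, and leaving out an array leaves the additive fit no residual degree of freedom.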

Other observations

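Stress and redox genes are known to act beside autophagy. Ddit3, which encodes CHOP, stood at 6.21 in KO and 5.86 in WT cells at 12 h (0.35) and at 6.21 in KO and 5.48 in WT cells at 24 h (0.74), and its KO levels agreed to this precision at both times. Ddit4 and Sesn2, both inhibitors of mTORC1, lay the other way. Ddit4 was at -0.51 and -0.60, and Sesn2 at -0.26 and -0.55, and both were higher at 24 h than at 12 h in each genotype, Ddit4 by 0.60 in KO and 0.69 in WT cells and Sesn2 by 0.55 and 0.83. Both had the same order over the arrays as the stromal sum, lowest in KO at 12 h and highest in WT at 24 h, and its part in them was not tested. The mean level of Ddit4 was below the stricter level filter of 4.37. Of the 6 genes of this list 4 were above 0 at each time, with medians of 0.15 and 0.23; at 24 h Ddit3 and Ddit4 were past 1.5-fold, in opposite directions, where 6.49% of all genes were past it.

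Among 7 NRF2 targets 5 were above 0 at 12 h and 4 at 24 h, with medians of 0.06 and 0.11 and 0 past 1.5-fold. The cystine transporter gene Slc7a11 was at 0.39 and 0.35, but its levels of 2.66 to 3.06 lie near the level filter. Nqo1, a quinone reductase, was at 0.50 and 0.18, with a mean level below the stricter filter of 4.37. The probe set annotated to both Becn1 and Cntd1 lay at 2.14 in KO and 1.84 in WT cells at 12 h and at 2.06 in KO and 2.10 in WT cells at 24 h, below the level filter.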
